A study of Mus musculus with 12 samples.

Results

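The genes described here are 8 transcripts that mark germinal centre B cells: Bcl6, Mybl1, S1pr2, Rgs13, Efnb1, Gcsam, Nuggc and Basp1. They were taken by name, as the rows of the deposited count table whose Entrez gene number belongs to each mouse symbol. All 8 were in the table of 27179 genes, and all 8 were among the 13592 genes with enough reads to be tested. The rule uses no measured value, though the genes were listed with earlier results of these data known.

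RNA was measured in mature B cells of C57BL/6 mice, sorted from bone marrow as B220high IgM+ CD93- cells, in 12 libraries. The wild-type groups were young (3 libraries, 9, 10 and 11 weeks of age) and old (3 libraries, 98, 99 and 100 weeks). The other groups lacked Bak1 and were 10 weeks old. Apoptosis-sensitive cells (3 libraries, Bak-/- Baxfl/fl) kept Bax between loxP sites, and apoptosis-resistant cells (3 libraries, Bak-/- BaxD/D) had Bax deleted. BAX and BAK are the proteins that open the outer mitochondrial membrane in apoptosis, so both Bak1-deficient groups carry a loss that wild-type cells do not. The Cre driver that deleted Bax was not given in the sources used here. Within each pair of groups, libraries of the same replicate number share a collection date: 24 March, 11 April and 12 April for old and young wild type, and 30 May, 31 May and 7 May for the Bak1-deficient groups.

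A germinal centre is a transient structure of lymphoid tissue in which B cells responding to antigen divide, mutate their antibody genes and are selected. BCL6, a transcriptional repressor, sets up and holds this state. Around it stand genes that keep the cells in place, restrain chemokine signals and protect the genome. Resting mature B cells of the marrow are not germinal centre cells, and most of these transcripts are known to be scarce in them.

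The library checks came first. Bax averaged 6.58 ± 1.70 CPM (read counts scaled by library size; SD, n = 3) in apoptosis-resistant cells and 70.7 ± 25.5 CPM in apoptosis-sensitive cells. Bak1 averaged 9.43 ± 3.15 and 10.7 ± 3.72 CPM in the apoptosis-sensitive and apoptosis-resistant groups, against 40.1 ± 8.10 CPM in young and 35.5 ± 10.4 CPM in old wild type. The B cell genes Ms4a1 and Ighm were abundant in every library, with lowest values of 636 and 3310 CPM. Library totals ran from 13474162 to 23539764 counts. The 24 March pair stood apart from the other libraries on the first principal component, which held 31.9% of the variance. Apoptosis-resistant replicate 3 stood apart in the genes described here, and results that rest on it are given with and without it.

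The promoter sequences shown are those of the members that passed the test in at least 1 comparison once collection date was taken into account, namely Bcl6, Rgs13 and Basp1. Each is the 250 bases before an annotated start, from RefSeq on GRCm38.p6, written in the direction of the gene. RefSeq entries matched 6 of the 8 members. Capitals mark the letters TTCNNNGAA, which read the same on both strands and hold the core of the sites that BCL6 binds as well as those of STAT factors.

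Bcl6, first start, chr16:23988853-23989102 (minus strand): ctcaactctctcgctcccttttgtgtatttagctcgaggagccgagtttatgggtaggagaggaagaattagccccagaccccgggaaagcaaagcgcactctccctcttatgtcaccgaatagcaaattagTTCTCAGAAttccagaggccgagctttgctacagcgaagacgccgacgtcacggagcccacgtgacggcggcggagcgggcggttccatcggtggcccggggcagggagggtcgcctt
Bcl6, second start, chr16:23981284-23981533 (minus strand): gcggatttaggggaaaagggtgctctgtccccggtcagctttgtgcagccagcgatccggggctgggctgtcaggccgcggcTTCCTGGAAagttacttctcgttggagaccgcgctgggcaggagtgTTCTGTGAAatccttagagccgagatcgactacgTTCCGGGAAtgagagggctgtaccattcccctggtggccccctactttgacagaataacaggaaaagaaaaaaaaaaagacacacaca
Rgs13, chr1:144177373-144177622 (minus strand): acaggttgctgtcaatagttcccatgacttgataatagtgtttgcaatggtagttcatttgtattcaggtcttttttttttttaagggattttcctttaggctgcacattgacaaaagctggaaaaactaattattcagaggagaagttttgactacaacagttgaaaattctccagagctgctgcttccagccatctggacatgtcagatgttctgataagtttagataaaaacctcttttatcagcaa
Basp1, chr15:25413765-25414014 (minus strand): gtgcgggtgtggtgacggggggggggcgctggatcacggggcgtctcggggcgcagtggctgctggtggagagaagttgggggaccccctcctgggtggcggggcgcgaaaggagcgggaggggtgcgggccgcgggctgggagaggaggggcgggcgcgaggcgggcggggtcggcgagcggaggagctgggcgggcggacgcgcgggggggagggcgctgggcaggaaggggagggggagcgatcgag

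The first Bcl6 window held 1 match to TTCNNNGAA and the second held 3. Among 32851 promoter windows of the same length, 7.02% held at least 1 match and 0.0274% held 3 or more. The Rgs13 and Basp1 windows held none, and neither did those of Gcsam, S1pr2 and Efnb1. The more specific form TTCCTAGAA, a match to TTCNNNGAA of the same length, was searched on both strands and stood in 0.347% of all windows and in none of the members. The short MYB motif AACNG, whose first letters can be the last of TTCNNNGAA, was in 74.2% of all windows on either strand. The Basp1 window was GC-rich, at 78.8% G and C, and the Rgs13 window GC-poor, at 36%, against a median of 52.4%. BCL6 is known to repress its own gene. A match here is a description of these letters, and binding was not measured. The 20 bases that follow the first Bcl6 start were found in a GENCODE transcript of the gene. Those that follow the second start, the one with 3 matches, were not.

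Bcl6 was by far the most abundant member. Per kilobase of merged GENCODE exon it reached 19.1 ± 4.31 CPM (SD, n = 3) in young wild type. On the same per-length scale and in the same group, Rgs13 had 1.94 ± 0.578, Mybl1 1.32 ± 0.295 and Efnb1 1.25 ± 0.688 CPM. Basp1 had 0.915 ± 0.485, Nuggc 0.837 ± 0.0951, S1pr2 0.261 ± 0.0983 and Gcsam 0.113 ± 0.153 CPM. The gene that governs the germinal centre programme was therefore well expressed in cells where Gcsam was close to the limit of detection. The exons of Bcl6 overlap 21 bases of Gm37419 exons on the opposite strand, and the exons of no other member overlap those of another gene.

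**Figure D1:**
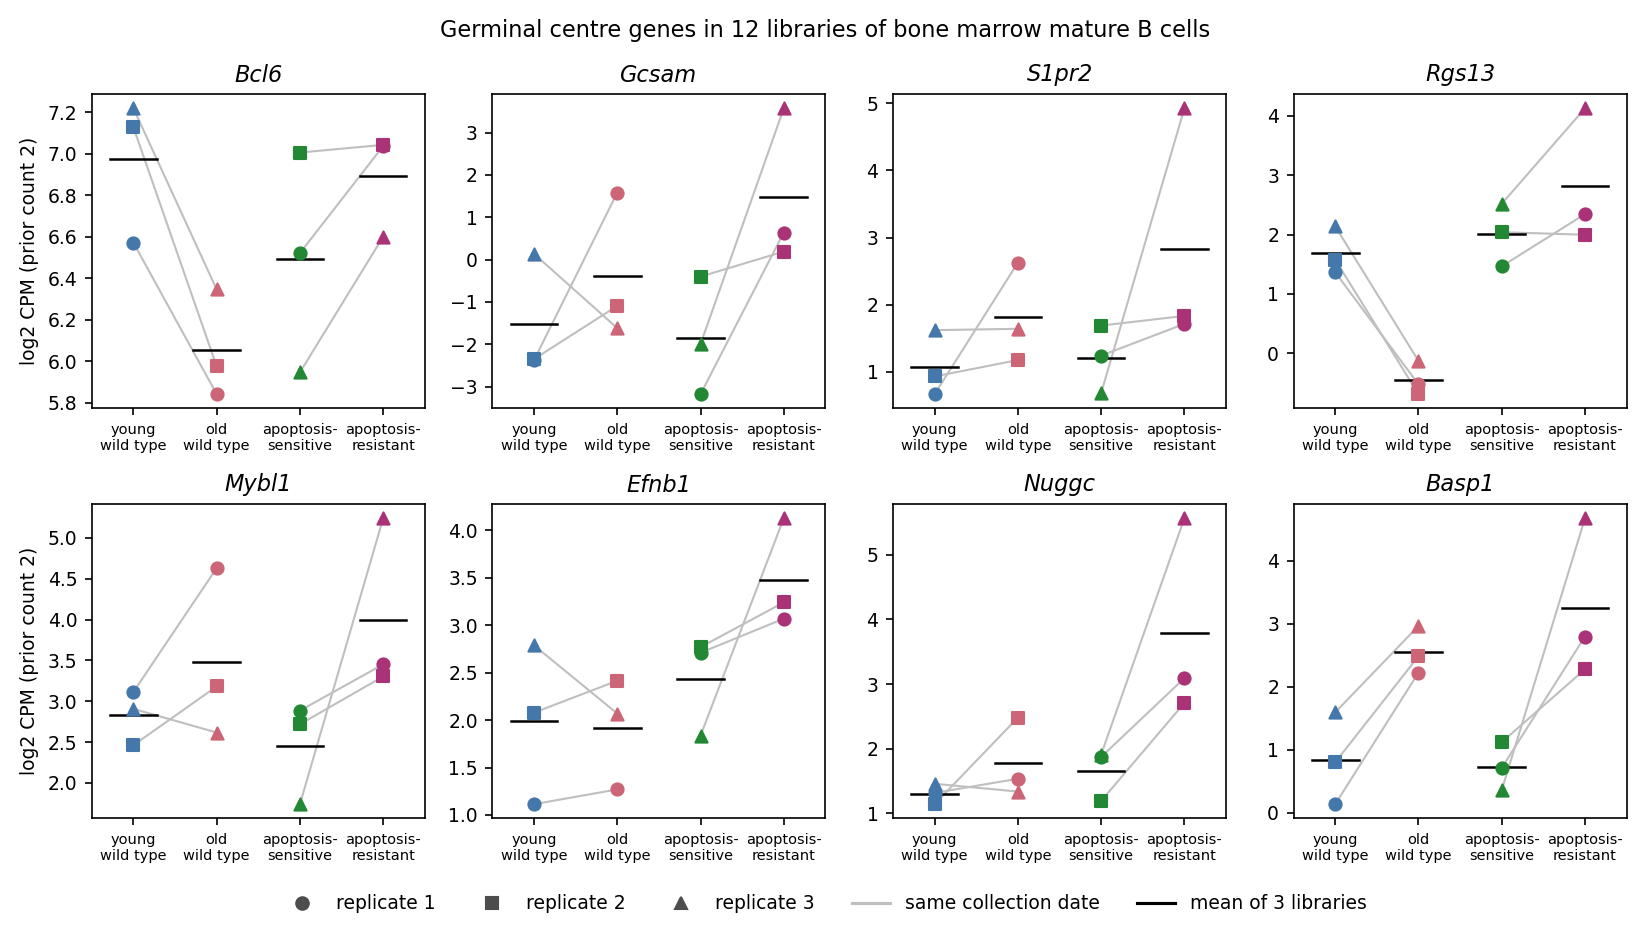
Level of each member in the 12 libraries, as log2 CPM with a prior count of 2, by group. Points are libraries, grey lines join libraries of the same collection date and black bars are means of 3 libraries. Bcl6 and Rgs13 sit lower in each old library than in its young partner, and apoptosis-resistant replicate 3 (purple triangle) is the highest of the 12 libraries for every member except Bcl6.

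Old and young wild type were set side by side to see how age bears on these genes. Bcl6 and Rgs13 were lower and Basp1 was higher in old cells in each of the 3 date pairs, without overlap between the groups. The other 5 members gave no common direction. With edgeR's quasi-likelihood test and Benjamini-Hochberg adjustment over all 13592 genes, 0 of the 8 members passed an adjusted p of 0.05, where 2.01% of all genes did. At an unadjusted p under 0.05 there were 3 of 8 (Bcl6, Rgs13 and Basp1), where 11.6% of all genes were. Groups that did not overlap were found for those 3 of 8 members, and for 16.1% of all genes. With the date pair as a block, 2 of 8 members passed, both lower in old cells, where 14.9% of all genes passed. DESeq2 called the same pair lower, where 5.16% of genes were called, and it gave no p for S1pr2. The median log2 fold change of the members was 0.72, against -0.03 over all genes tested.

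Bcl6, on chr16:23965050-23988866 (RefSeq gene on GRCm38.p6, as for all gene positions here), had 95.0, 139.7 and 149 CPM in the young libraries. The old libraries of the same dates had 57.2, 62.8 and 81.2 CPM. Every old library was below every young one, and the pairs differed by -0.73, -1.15 and -0.87 on the log2 scale. The fitted log2 fold change was -0.93 ± 0.27 (SE; edgeR adjusted p = 0.130). With the replicate block of date pairs it was -0.92 ± 0.12 (edgeR adjusted p = 0.00106). The value barely moved between these fits, and its standard error fell. DESeq2 gave -0.93 with an adjusted p of 0.0331.

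Rgs13 encodes a regulator of G protein signalling that speeds the shut-off of G proteins coupled to chemokine receptors, and it lies on chr1:144137386-144177372. Its young libraries had 2.46, 2.87 and 4.29 CPM. The old libraries had 0.587, 0.512 and 0.806 CPM, which are 12, 10 and 15 reads. All old values were below all young values, and the date pairs differed by -1.88, -2.26 and -2.26 on the log2 scale. The fitted log2 fold change was -2.33 ± 0.59 (SE; edgeR adjusted p = 0.0709), a level 0.199 times that of young cells. With the date block it was -2.32 ± 0.37 (edgeR adjusted p = 0.00251). DESeq2 gave -2.34 with an adjusted p of 0.00387, and edgeR without the 7 May pair gave -2.33 with an adjusted p of 0.0226. That pair is Bak1-deficient, and the fit without it was chosen after seeing the data. Other edgeR fits did not pass. The adjusted p was 0.131 with only the 6 libraries compared and 0.166 without the 24 March pair. Leaving out 1 replicate at a time it ran from 0.0912 to 0.241.

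Basp1 encodes a membrane-bound signalling protein that also acts as a transcriptional corepressor, and it lies on chr15:25363277-25413764. It had 0.986, 1.63 and 2.90 CPM in young libraries and 4.55, 5.48 and 7.69 CPM in old ones. Each old library was above each young one. The log2 fold change was 1.67 ± 0.61 (SE; edgeR adjusted p = 0.253), and 1.74 ± 0.53 with the date block (edgeR adjusted p = 0.0642). Neither value passed the threshold.

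The other members gave differences with age that overlapped between groups. Mybl1, a transcription factor of the MYB family, had 8.54, 5.40 and 7.39 CPM in young and 24.7, 8.96 and 6.02 CPM in old libraries. S1pr2, the sphingosine-1-phosphate receptor that confines B cells to the germinal centre, had 1.48, 1.80 and 2.97 CPM in young and 6.07, 2.15 and 3.01 CPM in old libraries. Gcsam, a signalling adaptor that restrains motility, had 0.0822, 0.0857 and 0.989 CPM in young and 2.89, 0.358 and 0.215 CPM in old libraries. Old replicate 1, of 24 March, was the highest old library for all of these, at 3.29 times the mean of the other 2 old libraries for Mybl1, 2.35 times for S1pr2 and 10.1 times for Gcsam. Without that library the log2 fold change was 0.08 ± 0.57 (SE) for Mybl1, 0.30 ± 0.87 for S1pr2 and -0.39 ± 1.52 for Gcsam. With it the values were 0.90 ± 0.61, 0.84 ± 0.79 and 1.60 ± 1.39, so the direction for Gcsam turned on 1 library.

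Efnb1, which encodes the ligand ephrin-B1, had 2.05, 4.11 and 6.79 CPM in young and 2.30, 5.22 and 4.09 CPM in old libraries. Nuggc, a nuclear GTPase that limits DNA breaks linked to antibody gene mutation, had 2.38, 2.10 and 2.64 CPM in young and 2.79, 5.48 and 2.42 CPM in old libraries. Their groups overlapped. The fold changes were -0.16 ± 0.48 (SE; edgeR adjusted p = 0.976) for Efnb1 and 0.59 ± 0.66 (edgeR adjusted p = 0.891) for Nuggc.

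Other cells' markers moved with age beside these values. The summed T cell markers were 4.54 to 7.72 CPM in young and 26.3 to 28.8 CPM in old libraries, over 11 genes. Of these, 2 rose in edgeR, and 7 were higher with the date block. NK cell markers summed to 1.97 to 4.02 and 8.47 to 12.7 CPM (6 genes, 4 of them tested), where 1 rose and 3 were higher with the block. Monocyte markers summed to 25.6 to 144 and 56.2 to 215 CPM (10 genes, 8 of them tested), where 1 rose and 5 were higher with the block. Markers of marrow stroma and endothelium summed to 211 to 352 CPM in young and 208 to 469 CPM in old libraries. Of these 8 genes, 6 of them tested, 1 rose and 4 were higher with the block, and their median log2 fold change was 2.67. The one that rose was Cxcl12, a chemokine of marrow stroma, by 3.79 on the log2 scale (edgeR adjusted p = 0.0419). Plasmacytoid dendritic cell markers summed to 215 to 257 and 278 to 363 CPM (5 genes, 4 of them tested). With the block 2 were higher, and without it 1 rose, Ccr9, by 1.49 (edgeR adjusted p = 0.0385). Most of the sum was Tcf4, with means of 210 CPM in young and 284 CPM in old libraries (edgeR adjusted p = 0.318, and 0.0150 with the block). Siglech and Bst2 of the same list were not called, at -0.04 ± 0.81 and 0.08 ± 0.25 on the log2 scale (SE, edgeR). The wide error of Siglech does not show that it was unchanged. Over all genes 1.7% rose and 0.309% fell, and 14.9% were called in either direction with the block. Markers of precursor and immature B cells went the other way, from 82.7 to 166 CPM in young down to 40.9 to 79.6 CPM in old libraries. Of those 12 genes, 3 fell: Cd93, Sox4 and Lef1. With the block 7 of them were lower. Markers of mast cells and basophils, which also express Rgs13, summed to 0.685 to 10.2 CPM in young and 2.01 to 11.3 CPM in old libraries. No marker of the T cell, NK cell, monocyte or precursor lists was at 0 in every library of either group. The part of these cells in the Bcl6, Rgs13 and Basp1 values was not tested, and in bulk RNA fewer cells of a type and less RNA per cell cannot be told apart.

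**Figure D2:**
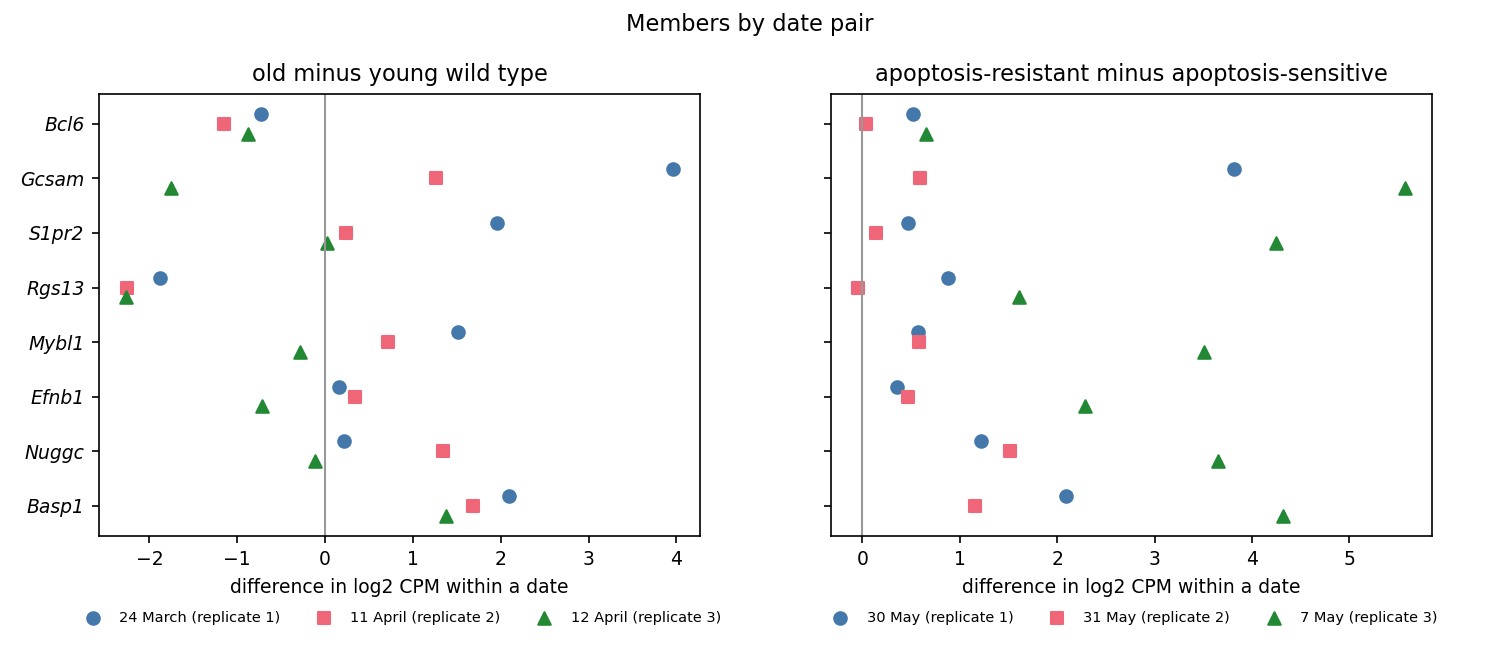
Difference in log2 CPM between the 2 libraries of each collection date, for each member, with age (left) and Bax deletion (right). Bcl6 and Rgs13 lie below 0 and Basp1 above 0 on all 3 dates with age. In the right panel the 7 May pair lies furthest to the right for all 8 members.

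Removal of Bax on top of Bak1 separates the apoptosis-resistant from the apoptosis-sensitive group. All 8 members had a higher fitted level without Bax, with a median log2 fold change of 2.11 against -0.02 over all genes tested. Without apoptosis-resistant replicate 3 the members' median was 0.78, so 1 library set much of its size. With edgeR, 0 of the 8 members passed the threshold, where 0.0441% of all genes (6) did. At an unadjusted p under 0.05 there were 6 of 8, where 4.9% of all genes were. The groups did not overlap for 6 of 8 members (Gcsam, S1pr2, Mybl1, Efnb1, Nuggc and Basp1), and for 14.6% of all genes. With the date pair as a block, 1 of 8 (Basp1, higher) passed, where 3.41% of all genes did. DESeq2 called 2 of 8 (Nuggc and Basp1, higher), where 0.944% of genes were called, and it gave no p for S1pr2.

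Basp1 had 1.52, 2.06 and 1.17 CPM in apoptosis-sensitive and 6.83, 4.73 and 25.4 CPM in apoptosis-resistant libraries. It was higher on each date, by 2.09, 1.16 and 4.32 on the log2 scale. The fitted log2 fold change was 2.96 ± 0.62 (SE; edgeR adjusted p = 0.185). With the date block it was 2.61 ± 0.56 (edgeR adjusted p = 0.0450), and without apoptosis-resistant replicate 3 it was 1.88 ± 0.46 (edgeR adjusted p = 0.289). All 3 fits placed it higher without Bax, and the call in the block fit sits just inside the threshold.

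Nuggc, on chr14:65593499-65648444, had 3.55, 2.18 and 3.65 CPM with Bax and 8.41, 6.42 and 47.2 CPM without it. Each apoptosis-resistant library exceeded each apoptosis-sensitive one. The log2 fold change was 2.72 ± 0.67 (SE; edgeR adjusted p = 0.292), and 2.22 ± 0.52 with the date block (edgeR adjusted p = 0.0711). Without replicate 3 it was 1.25 ± 0.40 (edgeR adjusted p = 0.639).

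The members that place and restrain the cells followed the same order. S1pr2, on chr9:20965952-20976793, had 2.26, 3.12 and 1.5 CPM with Bax and 3.17, 3.45 and 30.3 CPM without it. Gcsam, on chr16:45610440-45622867, had 0, 0.647 and 0.140 CPM with Bax and 1.45, 1.03 and 11.8 CPM without it. Behind the Gcsam values are 0, 11 and 3 reads and 21, 17 and 247 reads, and a count of 0 in that library allows up to 0.169 CPM. Rgs13 had 2.65, 4.00 and 5.61 CPM with Bax and 4.97, 3.88 and 17.3 CPM without it, so its groups overlapped. Efnb1, on chrX:99136061-99149022, had 6.43, 6.70 and 3.46 CPM with Bax and 8.28, 9.33 and 17.3 CPM without it.

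Their fitted log2 fold changes were 2.43 ± 0.80 for S1pr2, 4.19 ± 1.46 for Gcsam, 1.09 ± 0.53 for Rgs13 and 1.08 ± 0.47 for Efnb1 (SE, edgeR). Without apoptosis-resistant replicate 3 these became 0.54 ± 0.51, 2.24 ± 1.40, 0.12 ± 0.41 and 0.68 ± 0.50. On the log2 scale all of them were over 1.5 times smaller without that library, and none had an adjusted p below the threshold in either fit.

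The transcription factors differed from each other. Mybl1, on chr1:9667407-9700439, had 7.27, 6.47 and 3.23 CPM with Bax and 10.8, 9.76 and 37.7 CPM without it, and its log2 fold change went from 1.79 ± 0.62 (SE) to 0.87 ± 0.54 without replicate 3. Bcl6 had 91.8, 128 and 61.5 CPM with Bax and 131, 132 and 96.9 CPM without it, and its groups overlapped. Its log2 fold change was 0.35 ± 0.27 (SE; edgeR adjusted p = 0.9998) with all libraries and 0.49 ± 0.30 without replicate 3. Bcl6 was the only member for which replicate 3 was the lowest of the apoptosis-resistant libraries.

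**Figure D3:**
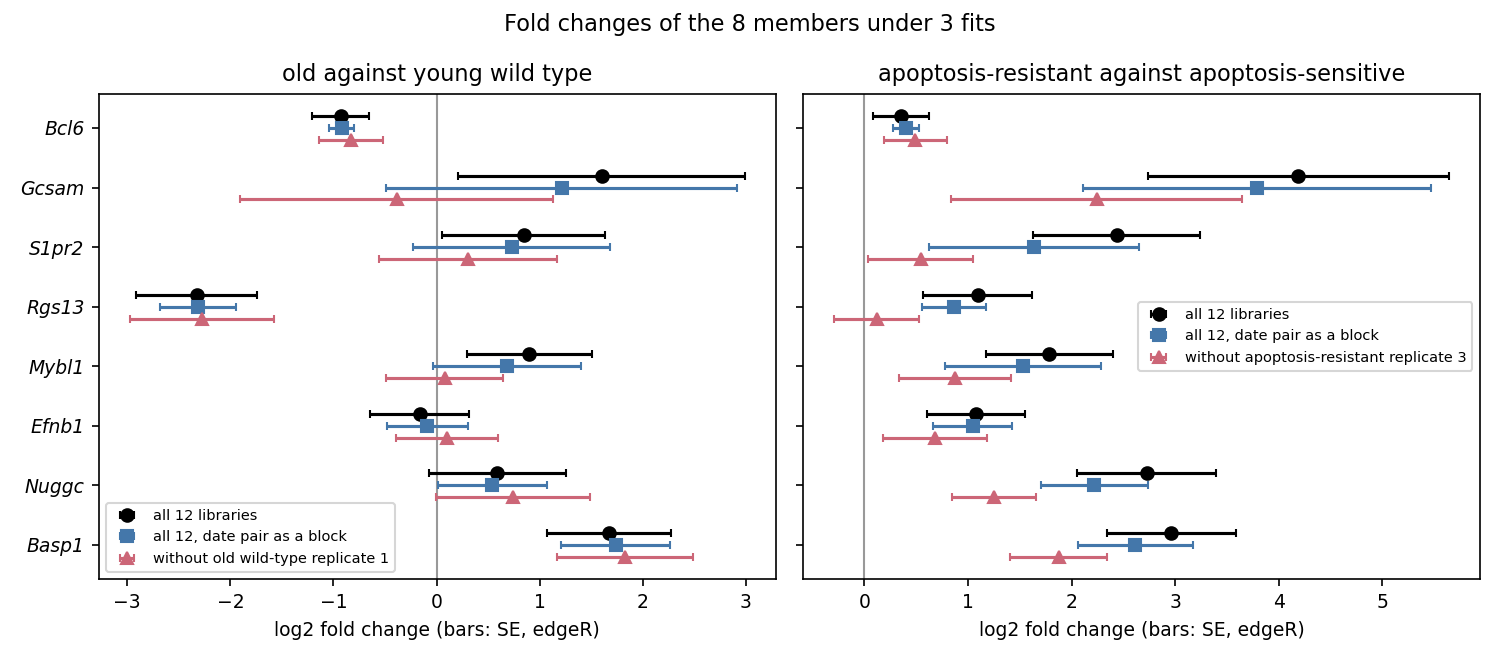
Log2 fold change of each member with its standard error from edgeR, with age (left) and Bax deletion (right). Circles use all 12 libraries, squares add the date pair as a block and triangles leave out old replicate 1 (left) or apoptosis-resistant replicate 3 (right). Bcl6 and Rgs13 keep their place with age, whereas on the right S1pr2 moves from 2.43 to 0.54 and Rgs13 from 1.09 to 0.12.

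Apoptosis-resistant replicate 3 was the highest of the 12 libraries for 7 of the 8 members, where it was the highest for 6.04% of all genes tested. Its level exceeded the next highest library 5.61 times for Nuggc, 4.99 times for S1pr2 and 4.09 times for Gcsam. The ratio was 3.30 for Basp1, 3.08 for Rgs13, 1.86 for Efnb1 and 1.53 for Mybl1. For Bcl6 it was 0.651. The next highest library was old replicate 1 for Gcsam, S1pr2 and Mybl1. The partner library of the same date, apoptosis-sensitive replicate 3, had the lowest apoptosis-sensitive value for Bcl6, S1pr2, Mybl1, Efnb1 and Basp1 and the highest for Rgs13 and Nuggc. Leaving replicate 3 out, 2 of 8 members (Nuggc and Basp1) had an unadjusted p under 0.05, where 4.63% of all genes had. Groups then did not overlap for 7 of 8 members, and for 33.6% of all genes, with 2 libraries against 3.

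A few genes of the related lists were also highest in that library, and most were not. It was the highest of the 12 for 1 of 10 regulators, 2 of 7 genes for antibody gene mutation, 0 of 10 genes for position, 2 of 11 surface genes and 1 of 17 genes repressed by BCL6. The regulator was Mef2b, which acts on Bcl6, with 21.6 CPM there and 17.0 CPM in old replicate 1, against 2.44 to 7.96 CPM in the other 10 libraries. Fas, a surface gene and the death receptor used to mark germinal centre B cells, had 23.5 CPM there against 7.66 and 8.18 CPM in the rest of its group, and 22.4 CPM in old replicate 1. These were named after their values were seen.

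Cell division genes, which are high in germinal centres, were not highest there. The 22 genes summed to 811 CPM in replicate 3, against 595 and 531 CPM in the other apoptosis-resistant libraries and 776 to 1302 CPM in apoptosis-sensitive cells. Markers of plasma cells summed to 862 CPM in replicate 3 and 686 to 712 CPM in the other libraries of its group. T cell markers summed to 9.22 CPM there, against 7.45 and 7.46 CPM in the rest of its group and 7.29 to 11.5 CPM in apoptosis-sensitive cells. NK cell markers summed to 5.45 CPM there, against 2.76 and 2.67 CPM in its group and 5.05 to 5.70 CPM in apoptosis-sensitive cells. Granulocyte markers summed to 67.2 CPM there, against 69.9 and 29.9 CPM in its group and 79.2 to 741 CPM in apoptosis-sensitive cells. Mast cell and basophil markers summed to 5.40 CPM there, with Fcer1a and Il4 at 0, and to 1.17 and 2.55 CPM in the other apoptosis-resistant libraries. Monocyte markers summed to 68.9 CPM there, with Cd14 at 0, against 49.1 and 51.0 CPM in its group and 42.1 to 143 CPM in apoptosis-sensitive cells. The part of these cells in the members' values was not tested.

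**Figure D4:**
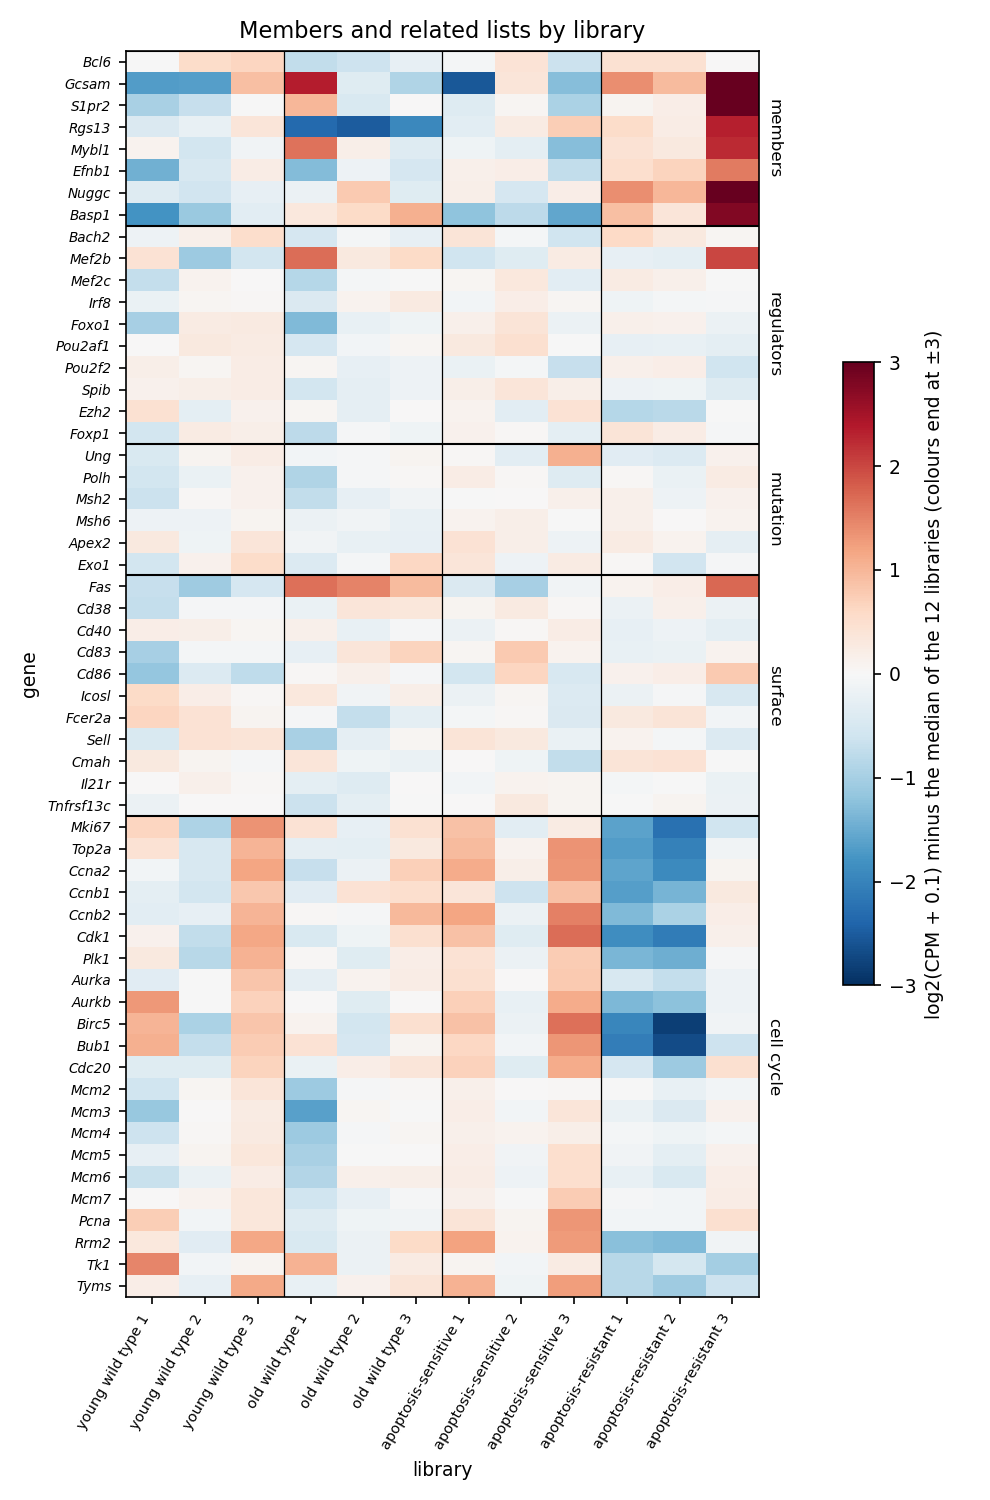
Members and 4 related gene lists (rows) in the 12 libraries (columns). Colour is log2(CPM + 0.1) minus the median of the 12 libraries for that gene, with colours ending at 3 and -3. Apoptosis-resistant replicate 3 is red for most members, Mef2b and Fas, while its cell division genes are near their median and those of the other apoptosis-resistant libraries are below it.

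The age and Bax effects can be set against each other, since they share no library. Bcl6 and Rgs13 were the members that parted most clearly. Each was lower with age on every date, whereas Bcl6 was higher without Bax on every date, by 0.52, 0.04 and 0.65 on the log2 scale. Rgs13 differed by 0.88, -0.04 and 1.61. In the test of the difference between the effects, 0 of 8 members passed in edgeR, where 0.25% of all genes did. At an unadjusted p under 0.05 there were 3 of 8 (Bcl6, Rgs13 and Nuggc), where 6.88% of all genes were. With the date block 2 of 8 passed, where 7.03% of all genes did. DESeq2 called 1 of 8, with no p for S1pr2, where 1.88% of genes were called.

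For Bcl6 the age effect minus the Bax effect was -1.28 ± 0.39 (SE; edgeR adjusted p = 0.288), and -1.32 ± 0.17 with the date block (edgeR adjusted p = 0.00230). For Rgs13 it was -3.42 ± 0.79 (edgeR adjusted p = 0.149), and -3.18 ± 0.48 with the date block (edgeR adjusted p = 0.00429). DESeq2 gave Rgs13 an adjusted p of 0.00370. Without apoptosis-resistant replicate 3 the Rgs13 value was -2.46 ± 0.57 (edgeR adjusted p = 0.161).

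Basp1 was higher in both comparisons. Its difference between the effects was -1.29 ± 0.84 (SE; edgeR adjusted p = 0.946) with all libraries and -0.21 ± 0.63 without apoptosis-resistant replicate 3.

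Apoptosis-sensitive cells and young wild type differ by Bak1 and by the presence of loxP sites, and they share no collection date, so genotype and date cannot be told apart. All 8 members overlapped between these groups. In edgeR 0 of 8 members and 0% of all genes passed, and at an unadjusted p under 0.05 there were 0 of 8, where 2.73% of all genes were. DESeq2 called 0 of 8, with no p for S1pr2, where 0.103% of genes were called. The fitted differences ran from -0.55 ± 1.54 (SE) for Gcsam to 0.40 ± 0.67 for Nuggc on the log2 scale, and Bcl6 had -0.45 ± 0.27. These intervals do not show that the groups are alike.

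By group means over all 12 libraries, apoptosis-resistant cells had the highest level of 7 members, and young wild type the highest of Bcl6. Without apoptosis-resistant replicate 3 this order turned for 4 members. The apoptosis-resistant mean of 2 libraries was then 3.31 CPM for S1pr2, 10.3 CPM for Mybl1 and 5.78 CPM for Basp1, below the old wild-type means of 3.74, 13.2 and 5.90 CPM. For Bcl6 it was 132 CPM, above the 128 CPM of young wild type. The orders that follow use all libraries. For Bcl6 the order was young wild type (128 ± 28.9 CPM, SD, n = 3), apoptosis-resistant (120.0 ± 19.97), apoptosis-sensitive (93.9 ± 33.5) and old wild type (67.1 ± 12.6), and each neighbouring pair overlapped. For Rgs13 the order was apoptosis-resistant (8.71 ± 7.45 CPM), apoptosis-sensitive (4.09 ± 1.48), young (3.21 ± 0.956) and old wild type (0.635 ± 0.153), and the step from young to old was free of overlap. For Basp1 it was apoptosis-resistant (12.3 ± 11.4 CPM), old (5.90 ± 1.61), young (1.84 ± 0.975) and apoptosis-sensitive (1.58 ± 0.448), with the step from old to young free of overlap. Efnb1 and Nuggc had a clear step only between the apoptosis-resistant group and the next. In Gcsam, S1pr2 and Mybl1 every neighbouring pair of groups overlapped.

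Few genes of the related lists passed in edgeR without the date block. Of 10 further regulators of the programme 0 passed in edgeR with age or with Bax deletion, the largest differences being 1.27 for Mef2b with age (edgeR adjusted p = 0.530) and 1.13 without Bax. With the date block 1 was higher and 4 were lower with age, and 3 were lower without Bax, where 14.9% and 3.41% of all genes were called in either direction. The same shares stand behind the block counts of the lists that follow. Of 7 genes for antibody gene mutation 0 passed in either comparison with or without the block. Of 10 genes for position, among them Cxcr4, Cxcr5 and Gpr183, 0 passed in edgeR in either comparison, and 1 was lower in each with the block.

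Among 13 surface genes, 11 of them tested, Fas rose with age by 2.15 (edgeR adjusted p = 0.0318), from 3.34 to 4.95 CPM in young to 13.7 to 22.4 CPM in old libraries. With the block 3 were higher and 2 lower with age, and 2 were higher without Bax. Of 17 genes that BCL6 is known to repress, 3 rose with age in edgeR, where 1.7% of all genes did, at adjusted p values of 0.00563 for Cd80, 0.0467 for Id2 and 0.0486 for Cxcl10. Their log2 fold changes were 2.86, 1.92 and 4.81. CD80 is a costimulatory protein, ID2 an inhibitor of E proteins and CXCL10 a chemokine. The median over the 17 was 0.06, against -0.03 over all genes, and with the block 5 were higher and 1 lower, where 14.9% of all genes were called. T cell, NK cell, monocyte and stromal markers moved with age beside Fas and these genes, as given above, and their part was not tested. Without Bax, 1 of the 17 fell, where 0.0221% of all genes did. It was the cyclin Ccnd2, which fell by 2.09 on the log2 scale (edgeR adjusted p = 0.0449). Over the 17 the log2 fold changes without Bax ran from -2.09 to 2.19. With the block 2 of them were higher and 2 lower without Bax, where 3.41% of all genes were called.

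Cell division genes stood opposite to the members without Bax. All 22 had a log2 fold change below 0, with a median of -1.09, while all 8 members were above 0. In edgeR 0 of the 22 passed without Bax or with age. With the block 13 were lower without Bax and 3 were lower with age. Granulocyte markers (8 genes) summed to 79.2 to 741 CPM with Bax and 29.9 to 69.9 CPM without it, and erythroid markers (6 genes) to 40.6 to 225 and 33.6 to 70.8 CPM. Their part in these values was not tested. Mki67, the common proliferation marker, had 171, 74.9 and 111 CPM with Bax and 30.3, 19.6 and 61.3 CPM without it.

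Across the 12 libraries the members other than Bcl6 tended to be high in the same libraries. The libraries fall into groups and date pairs and are not exchangeable, so the correlations are a description and carry no test. Of the 28 pairs of members, the 21 without Bcl6 had a median Pearson's r of 0.68, and of 0.33 without apoptosis-resistant replicate 3. Over the 7 pairs with Bcl6 it was -0.003.

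Gcsam and S1pr2 were the pair most alike, with Pearson's r = 0.889 and Spearman's rho = 0.874. The r was 0.903 without the 2 libraries farthest from the Gcsam median, 0.836 without apoptosis-resistant replicate 3 and 0.876 on deviations from the date means. Bcl6 and Rgs13 had r = 0.518 and rho = 0.441. On deviations from the date means their r was 0.989, over 6 dates. Each date holds 2 libraries, so such deviations carry only the differences within date pairs, which hold the age and Bax effects. For both pairs of members this r therefore restates those differences and is not separate support. On the log2 CPM values themselves, without taking deviations, r was 0.948 over the 6 wild-type libraries and -0.183 over the 6 Bak1-deficient ones.

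**Figure D5:**
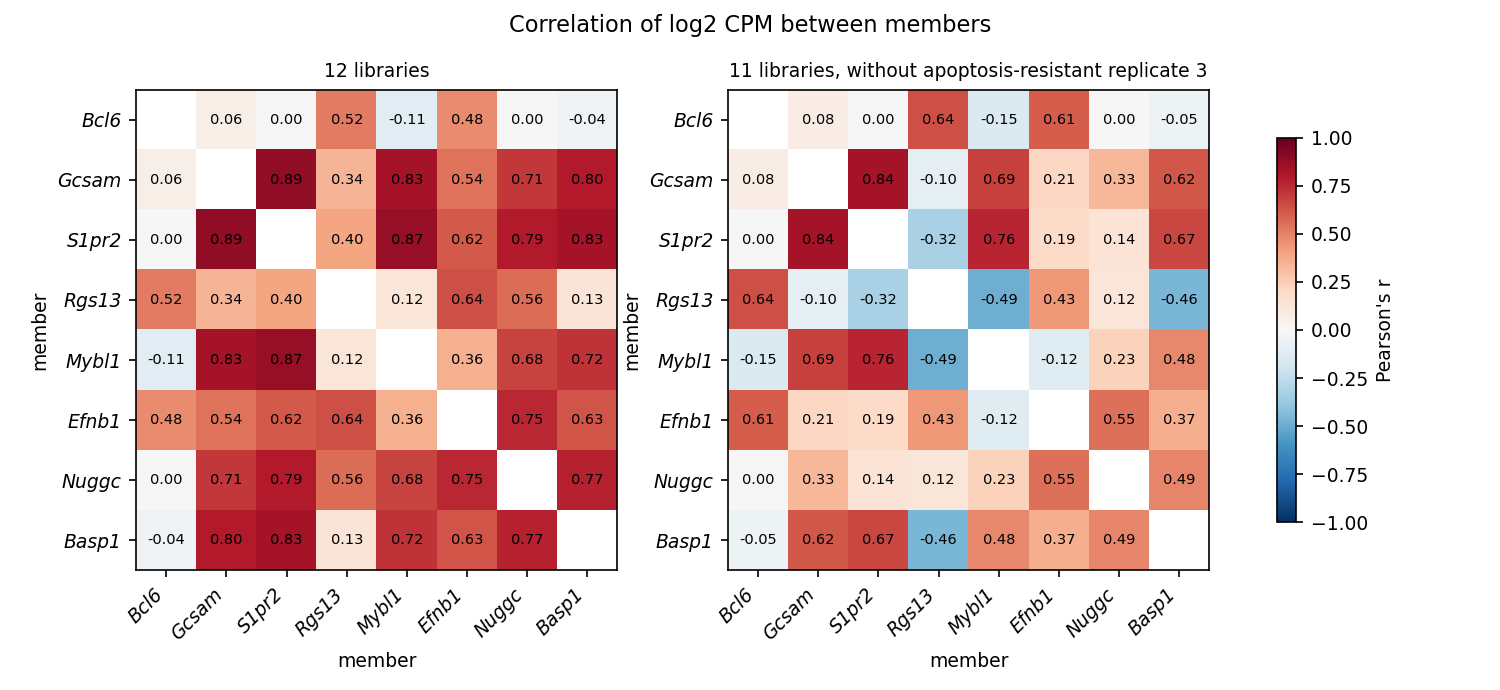
Pearson's r of log2 CPM between members over 12 libraries (left) and over the 11 without apoptosis-resistant replicate 3 (right). Gcsam and S1pr2 keep a high r in both panels (0.89 and 0.84), while Rgs13 with S1pr2 goes from 0.40 to -0.32.

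Up to 3 genes whose pattern was most like each member were found by Pearson's r of log2 CPM over the 12 libraries among 11054 candidates, as a description. These values carry no test either. For Bcl6 they included Sh3pxd2a (0.980) and Nfya (0.952). For Gcsam they included S1pr2 (0.889) and Dlg5 (0.867), and for S1pr2 Plxnb2 (0.925) and Gcsam (0.889). For Rgs13 they were Itpkc (0.961), Csrp2 (0.934) and Tec (0.917), a tyrosine kinase. Mybl1 was most like Rassf6 (0.948), Plxnb2 (0.945) and Cep164 (0.926). Efnb1 was most like Ccng1 (0.898), Ppp4r2 (0.891) and Aars (0.885). Nuggc was most like Atf5 (0.892), Bbc3 (0.884), which encodes the death initiator PUMA, and Fam221a (0.884), and Basp1 like Dlg5 (0.936), Zdhhc2 (0.891) and Tmem51 (0.887). Without apoptosis-resistant replicate 3 the value was 0.747 for Gcsam and Dlg5 and 0.752 for S1pr2 and Plxnb2, while that of Bcl6 and Sh3pxd2a was 0.983.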

How the data were processed

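RNA was measured as polyadenylated RNA in 12 libraries. Per the labels' protocols, libraries were made with the TruSeq v2 kit. The authors deposited whole-number read counts per gene, made with Subread and featureCounts on mm10 per the submitters' processing notes. Versions, annotation and strand setting are not given in the sources used here. Totals of 13474162 to 23539764 counts set the precision, and members with few reads are the least certain.

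Symbols came from RefSeq on GRCm38.p6, which matched 25275 genes. Groups, replicate numbers and collection dates came from the labels. The series design calls the libraries biological replicates. The label of the 24 March pair gives the year 2006 and the others 2016.

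Genes were kept by edgeR's filterByExpr (minimum count 10), normalized by TMM and tested by the robust quasi-likelihood test of edgeR 4.0.16 (limma 3.58.1, R 4.3.3) in 1 fit of 4 groups, with 8 residual degrees of freedom and Benjamini-Hochberg adjustment over 13592 genes. The log2 CPM values use a prior count of 2. The floor for a count of 0 is 3 counts and covers counting error only. Permutation p values of the correlations between members assume exchangeable libraries, which groups and date pairs do not give, and are not printed. Every pair of replicates differed beyond counting noise (lowest chi-square per degree of freedom 5.39).

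Between libraries of the same date, deviations from group means correlated at 0.745, 0.512 and 0.555 for the wild-type pairs and at 0.284, 0.325 and 0.487 for the Bak1-deficient pairs. Deviations within a group of 3 libraries depend on each other, and no values for libraries of different dates stand beside these. They therefore do not show by themselves that date pairs the libraries. The fit with date as a block leaves 4 residual degrees of freedom. Alternatives were DESeq2 1.42.0, other size factors, filters and sets of libraries. Steps were tested on simulated data.

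All 8 members were named with every library's value. Of each related list, genes past the threshold were named, or else the 2 with the largest change and a mean of at least 1 CPM. Some others, such as Mki67, were chosen after their values were seen. The members and lists were chosen with earlier results of these data known. Some genes that this rule would name are not reported here.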

Additional observations from a re-analysis of the deposited data

Results flagged for a closer look

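Bcl6 moved in opposite directions in the 2 comparisons on every collection date: lower with age in 3 of 3 pairs and higher without Bax in 3 of 3 pairs, though on 31 May by only 0.04 on the log2 scale (132 against 128 CPM). The Bax effect on Bcl6 alone passed in neither edgeR fit (adjusted p = 0.9998, and 0.109 with the date block). The age effect minus the Bax effect was -1.28 on the log2 scale. The difference itself did not pass the threshold in edgeR without the date block (adjusted p = 0.288) or in DESeq2 (adjusted p = 0.0807), and passed it in edgeR with the block (adjusted p = 0.00230).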

How the results depend on the processing

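With the replicate block of date pairs, 2 members were called with age, 1 with Bax deletion and 2 for the difference, against 0 each without it, and over all genes 2028, 463 and 955 were called against 273, 6 and 34. The block changed the call of no other member. DESeq2 called 2, 2 and 1 members, and 700, 128, 255 and 14 genes, the last between apoptosis-sensitive and young wild type (edgeR 0). Without a filter on low counts 1 member was called with age (Rgs13), 11 genes without Bax and 3 between apoptosis-sensitive and young. With only the 6 libraries compared, 1 gene was called with age. Without the 24 March pair, 31, 75 and 3 genes were called for Bax deletion, the difference and apoptosis-sensitive against young. Without the 7 May pair, chosen after seeing the data, 1 member (Rgs13) was called with age, and 0, 4 and 1 genes in those 3 comparisons. Leaving out 1 replicate at a time gave 0 members in every comparison, and 75 to 238 genes with age, 0 to 5 without Bax, 2 to 37 for the difference and 0 to 1 for apoptosis-sensitive against young. The cause of these moves was not tested. Other size factors, a stricter filter and leaving out immunoglobulin genes changed no member's call. The low depth of Gcsam, at 0 to 3 reads in 4 libraries, and of Rgs13 in old cells limits their values.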
